A study of Homo sapiens with 12 samples.

Results

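Laminin chain genes were followed in MDA-MB-231 cells, a human triple-negative breast cancer line, after depletion of the transcriptional coactivators YAP (gene YAP1) and TAZ (gene WWTR1). A total of 8 genes was named for this purpose, LAMA1, LAMA3, LAMA4, LAMA5, LAMB1, LAMB2, LAMB3 and LAMC1, and their probe sets were taken by the gene symbol in the platform annotation. This gave 14 probe sets of 7 genes among 54675 on the array, and LAMA3 was not analysed here. The family was selected on earlier results of these same arrays, that is on their log2 levels and differences between the groups. In the RefSeq gene table the genes lie on chromosomes 18 (LAMA1 and LAMA3), 6 (LAMA4), 20 (LAMA5), 7 (LAMB1), 3 (LAMB2) and 1 (LAMB3 and LAMC1). The series had 3 groups of 4 arrays each: cells with siYAP/TAZ mix 2, cells with siYAP/TAZ mix 1 and cells with a control siRNA (siControl). All cells grew in the same medium with serum, received siRNA at 33 nM on day 2 and fresh medium on day 3, and were harvested on day 4. The replicates, lettered A to D, were separate platings of 1 cell line handled in parallel. Each mix was aimed at both genes, and no group had YAP or TAZ depleted alone.

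Laminins are secreted trimers of 1 α, 1 β and 1 γ chain, joined through a long coiled coil, and they form the cell-facing sheet of basement membranes. The α chain ends in globular domains that bind integrins and dystroglycan, and the kind of chain decides which trimer is made: the γ1 chain enters most trimers, the α5 and α4 chains pair with β1 or β2 and γ1, and the β3 chain belongs to a trimer with α3 that anchors epithelia. YAP and TAZ are held in check by the Hippo kinases, bind DNA mostly by way of TEAD factors, and are sensitive to the stiffness of the matrix on which a cell sits.

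Values are log2 expression from RMA, a summary of all probes of a probe set, and a difference of 1 on this scale is a doubling. Levels of different probe sets are not comparable with each other, so each is compared only with itself across the groups. Probe sets with a mean over the 12 arrays above 5.46 log2, the 40th percentile, were tested (24650 of 41091 with a single gene name). Among the laminin chains 8 probe sets of 6 genes passed this filter. YAP1 was at 8.09 ± 0.10 log2 with mix 2, 8.15 ± 0.36 with mix 1 and 11.16 ± 0.10 with siControl (SD, n = 4 each), and WWTR1 at 8.95 ± 0.12, 9.06 ± 0.22 and 11.40 ± 0.10 in the same order of groups. CCN2, a known YAP and TAZ target, was at 10.38 ± 0.07, 8.62 ± 0.20 and 12.66 ± 0.09 in that order, and lay 1.76 log2 higher with mix 2 than with mix 1 (limma adjusted p = 1.08e-09). VIM, the mesenchymal filament protein of such lines, averaged 14.37, 14.41 and 14.29 log2 with mix 2, mix 1 and siControl. Of the 6 markers of such lines, 5 were tested. With mix 2, 0 rose and 3 fell, and with mix 1, 2 rose and 3 fell (limma adjusted p below 0.05). With mix 2 the 0 stayed 0 at an unadjusted p below 0.05. Over all probe sets 66.2% and 65.0% were called with mix 2 and mix 1. AXL averaged 12.83, 12.13 and 13.24 log2 with mix 2, mix 1 and siControl, and CD44 averaged 11.93, 11.96 and 12.22. CAV1 averaged 12.99, 12.83 and 13.14, and ZEB1 10.36, 10.99 and 10.63. Of the receptors that define the triple-negative class by their absence, PGR lay below the filter value, but ESR1 (6.19, 6.26 and 6.31 log2 with mix 2, mix 1 and siControl) and ERBB2 (7.95, 7.75 and 7.76) passed it, and ERBB2 rose with mix 2 (0.20, adjusted p = 0.0245). The marker SPARC, a matrix protein listed among the markers of such lines, was below it (4.37, 4.67 and 4.33 log2 with mix 2, mix 1 and siControl). Array medians lay between 5.69 and 5.78 log2. Mix 2 replicate D stood somewhat apart: it was the lowest of its 4 arrays in 51.8% of the tested probe sets and in 5 of the 8 laminin probe sets. In siControl, the baseline of both mixes, replicate C was the lowest in 6 of the 8 laminin probe sets and in 27.2% of all.

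The 6 measured chains fell into those higher with both mixes and those lower with mix 2. LAMA4, LAMA5, LAMB2 and LAMC1 were higher with both mixes than with siControl, by 0.39 to 2.33 log2. LAMB1 and LAMB3 were lower with mix 2, by 0.79 and 1.48 log2 at their brightest probe sets, whereas with mix 1 their arrays overlapped the siControl arrays. By adjusted p (0.05), limma called 5 of the 8 probe sets higher and 3 lower with mix 2, where 34.0% and 32.2% of all 24650 probe sets were called, and 5 higher and 0 lower with mix 1, where 33.2% and 31.7% were called; the 0 stayed 0 at an unadjusted p below 0.05, and no other tool was run. Between the mixes 2 were called higher and 4 lower with mix 2, against 25.8% and 25.6% of all probe sets. In either direction this was 8, 5 and 6 of the 8 probe sets for mix 2 against siControl, mix 1 against siControl and mix 2 against mix 1, where 66.2%, 65.0% and 51.3% of all were called. The same numbers of laminin probe sets had groups of arrays that did not overlap. Over all probe sets the arrays of mix 2 lay wholly above those of siControl in 31.3% and wholly below in 30.9% (62.2% together), those of mix 1 above siControl in 30.5% and below in 29.9% (60.3%), and those of mix 2 above mix 1 in 21.8% and below in 22.3% (44.1%). The median difference over the 8 probe sets was 0.59 log2 with mix 2 and 0.40 with mix 1, where the median over all probe sets was 0.01 and 0.00. The genes were chosen with results of these arrays known, and both mixes were set against the same 4 siControl arrays, so these counts and the values that follow are descriptions, given without p-values, and nothing is read from the shares.

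**Figure D1:**
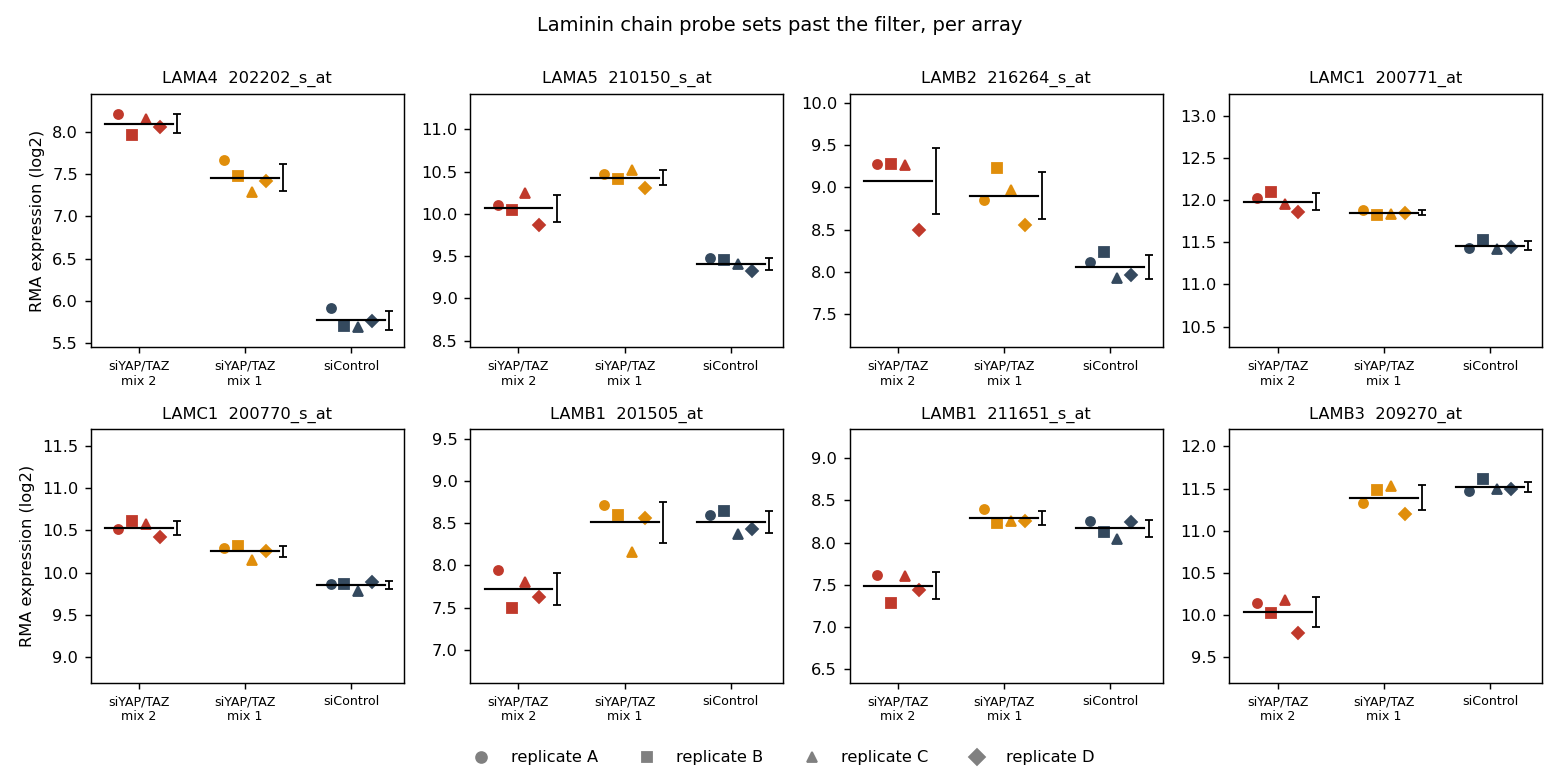
RMA expression (log2, vertical axis, 3 units in every panel) of the 8 laminin chain probe sets past the filter, by siRNA group. Points are single arrays with the replicate letter as the shape, horizontal lines are means and bars are SD (n = 4). LAMA4, LAMA5, LAMB2 and LAMC1 sit lowest with siControl, and LAMB1 and LAMB3 sit lowest with mix 2.

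Among the α chains, LAMA4 had the widest span of group means. LAMA4 encodes the α4 chain, a short α chain of blood vessel, muscle and other mesenchymal basement membranes. Its brightest probe set, 202202_s_at, read 8.21, 7.96, 8.16 and 8.06 log2 with mix 2, 7.67, 7.48, 7.29 and 7.42 with mix 1 and 5.92, 5.70, 5.69 and 5.76 with siControl (replicates A to D). Every array of either mix lay above every siControl array, and the mix 2 arrays lay above the mix 1 arrays. The differences were 2.33 log2 (SE 0.09, 5.03-fold) with mix 2 and 1.70 (SE 0.09, 3.24-fold) with mix 1, and mix 2 exceeded mix 1 by 0.63 (95% interval 0.45 to 0.82). The siControl level lay just above the filter value. In such bulk RNA, fewer cells with a transcript and less of it per cell cannot be told apart.

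The other 4 LAMA4 probe sets lay below the filter and differed less. The set 216081_at averaged 4.83 ± 0.25 log2 with mix 2, 4.67 ± 0.12 with mix 1 and 4.34 ± 0.24 with siControl, with overlapping arrays in each pair of groups. The set 210089_s_at was higher with mix 2 than with siControl by 0.36 log2 (95% interval 0.15 to 0.57) with no overlap of arrays, and differed from siControl by 0.09 with mix 1. For 210990_s_at and 210989_at the differences from siControl lay between 0.05 and 0.16 log2, with overlap. The high LAMA4 values were thus read on 1 probe set of 5. The names of the LAMA4, LAMA5 and LAMB2 probe sets past the filter end in _s_at, which marks probes that can match several transcripts.

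LAMA5 encodes the α5 chain, the main α chain of mature epithelial basement membranes, and 1 probe set, 210150_s_at, was annotated to this gene alone. It read 10.11, 10.05, 10.25 and 9.87 log2 with mix 2, 10.47, 10.41, 10.52 and 10.31 with mix 1 and 9.48, 9.45, 9.41 and 9.32 with siControl. All arrays of both mixes lay above siControl, and here mix 1 was the higher of the mixes. LAMA5 was 0.66 log2 above siControl with mix 2 (SE 0.08, 1.57-fold) and 1.01 above it with mix 1 (SE 0.08, 2.02-fold), and mix 2 stood 0.36 below mix 1 (difference -0.36, 95% interval -0.53 to -0.19). A probe set annotated to both LAMA5 and its antisense transcript LAMA5-AS1 differed the other way. Its differences were -0.26 with mix 2 and -0.29 with mix 1, with overlapping arrays and no test.

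LAMA1 encodes the α1 chain, which is typical of early embryos and of a few adult epithelia. Both of its probe sets lay below the filter. The set 222346_at averaged 5.20 ± 0.10 log2 with mix 2, 5.11 ± 0.05 with mix 1 and 5.12 ± 0.18 with siControl, and 227048_at averaged 4.23 ± 0.14, 4.09 ± 0.30 and 4.31 ± 0.21. The groups overlapped in every comparison, and the 95% intervals of the differences between either mix and siControl reached from -0.51 to 0.26 log2.

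**Figure D2:**
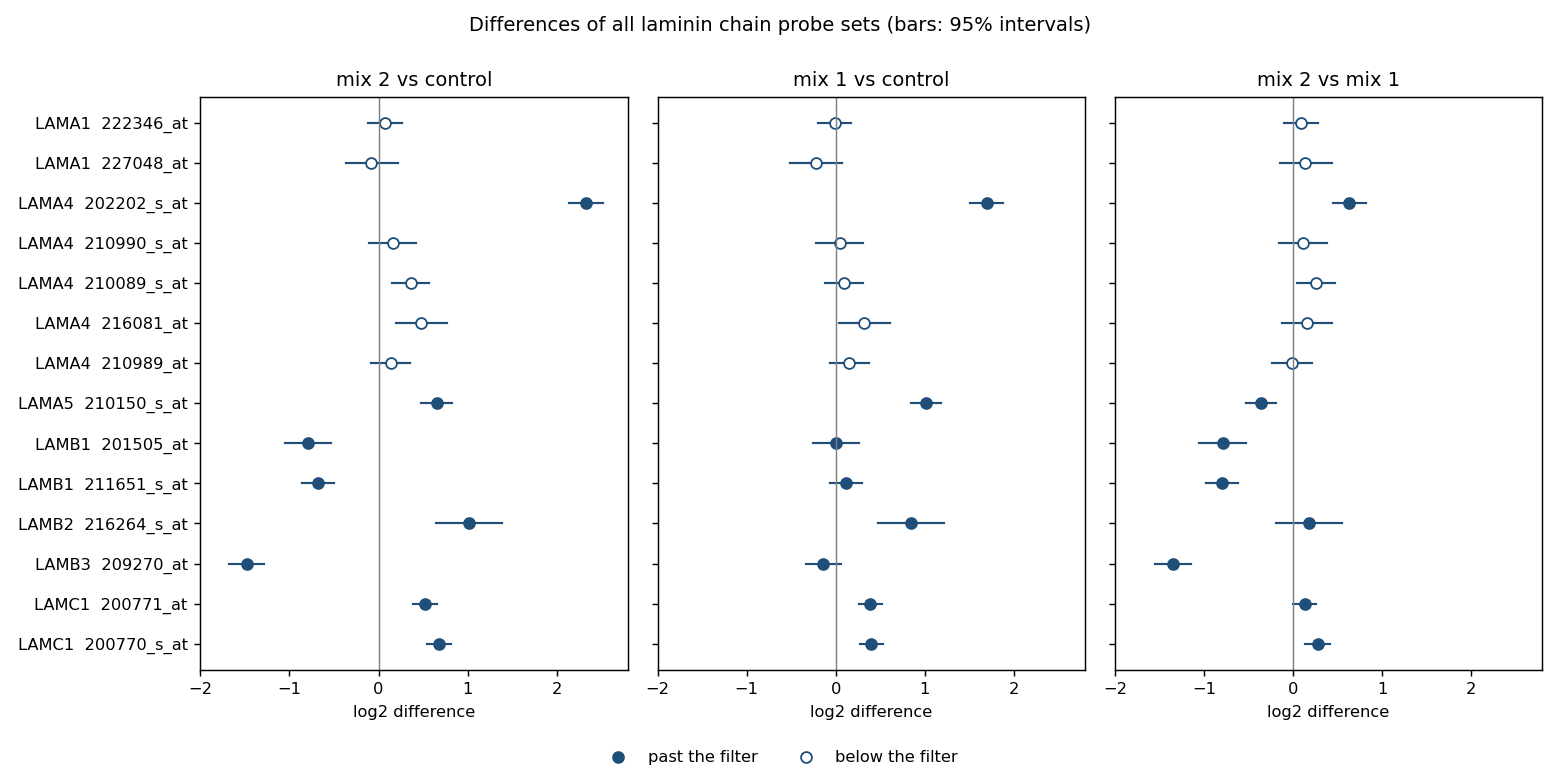
Log2 differences (horizontal axis) of all 14 laminin chain probe sets for mix 2 against siControl, mix 1 against siControl and mix 2 against mix 1. Points are limma estimates from 4 arrays per group, bars are 95% intervals, and open points are probe sets below the filter. LAMA4 202202_s_at lies farthest to the right in the first panel (2.33), and LAMB3 is the farthest to the left (-1.48).

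Among the β chains, LAMB2 was higher with both mixes, while LAMB1 and LAMB3 were not. LAMB2 encodes the β2 chain, known from the neuromuscular junction and the kidney filter, which can take the place of β1 in trimers with α4 or α5. Its probe set 216264_s_at read 9.28, 9.28, 9.27 and 8.50 log2 with mix 2, 8.85, 9.23, 8.97 and 8.55 with mix 1 and 8.11, 8.24, 7.93 and 7.96 with siControl. All arrays of both mixes lay above siControl, and mix 2 replicate D lay far below the other mix 2 arrays. LAMB2 was 1.02 log2 above siControl with mix 2 (SE 0.17, 2.03-fold) and 0.84 above with mix 1 (SE 0.17, 1.79-fold). The difference of 0.18 between the mixes (95% interval -0.19 to 0.55) was not called, but without mix 2 replicate D it was 0.38 and was called.

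LAMB1 encodes the β1 chain, the most widespread β chain, and both of its probe sets passed the filter. The set 201505_at read 7.94, 7.50, 7.80 and 7.63 log2 with mix 2, 8.72, 8.60, 8.16 and 8.56 with mix 1 and 8.60, 8.64, 8.37 and 8.43 with siControl. The mix 2 arrays lay below all others, and the mix 1 arrays overlapped siControl. The difference from siControl was -0.79 log2 with mix 2 (SE 0.12) and 0.00 with mix 1 (95% interval -0.26 to 0.26). The second set, 211651_s_at, gave -0.68 with mix 2 (SE 0.08) and 0.12 with mix 1 (95% interval -0.06 to 0.30). Mix 2 lay below mix 1 in both sets, with differences of -0.79 and -0.80 log2.

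LAMB3 encodes the β3 chain of the anchoring laminin of epithelia. Its probe set 209270_at read 10.15, 10.03, 10.18 and 9.79 log2 with mix 2, 11.33, 11.48, 11.53 and 11.20 with mix 1 and 11.47, 11.61, 11.50 and 11.50 with siControl. The mix 2 arrays lay more than 1 log2 unit below every other array, while mix 1 and siControl overlapped. The difference from siControl was -1.48 log2 with mix 2 (SE 0.09, 2.79-fold lower) and -0.14 with mix 1 (95% interval -0.33 to 0.06), and mix 2 differed from mix 1 by -1.35 (95% interval -1.55 to -1.15).

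LAMC1 encodes the γ1 chain shared by most laminin trimers, and it had the smallest span of group means of the 6 measured chains. The set 200771_at read 12.02, 12.09, 11.95 and 11.86 log2 with mix 2, 11.88, 11.82, 11.84 and 11.85 with mix 1 and 11.43, 11.53, 11.42 and 11.44 with siControl. All arrays of both mixes lay above siControl, and the mixes overlapped. LAMC1 stood 0.52 log2 above siControl with mix 2 and 0.39 above with mix 1 (SE 0.06 each). The second set, 200770_s_at, stood 0.68 above siControl with mix 2 and 0.40 with mix 1. Between the mixes this second set was called (0.28, SE 0.06), with no overlap of arrays, and 200771_at was not (0.13, SE 0.06); 200771_at was called without mix 2 replicate D (0.17) and with a trended variance prior (0.13), and LAMC1 was called when both sets were averaged (0.20).

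The sequence upstream of the start site is shown for LAMA4, the chain with the highest difference, and for LAMB3, the chain with the lowest, since YAP and TAZ act through TEAD and often together with AP-1 factors. The sequences are from RefSeq (GRCh38.p14); the array files name no genome build. Each covers the 250 bases before a start site, on the minus strand at chr6:112254568-112254817 for LAMA4 and at chr1:209651375-209651624 for LAMB3, where the third of the 3 LAMB3 start sites in the table is shown. Capitals mark matches to the AP-1 motif TGANTCA. Of the LAMB3 windows only the one shown held such a match, so it does not stand for the other start sites. The first and second LAMB3 windows, which overlap each other, held none.
LAMA4: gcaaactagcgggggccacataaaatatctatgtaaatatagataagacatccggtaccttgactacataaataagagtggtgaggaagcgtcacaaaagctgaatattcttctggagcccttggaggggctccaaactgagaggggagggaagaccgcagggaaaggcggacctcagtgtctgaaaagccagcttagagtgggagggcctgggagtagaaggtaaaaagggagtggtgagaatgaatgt
LAMB3: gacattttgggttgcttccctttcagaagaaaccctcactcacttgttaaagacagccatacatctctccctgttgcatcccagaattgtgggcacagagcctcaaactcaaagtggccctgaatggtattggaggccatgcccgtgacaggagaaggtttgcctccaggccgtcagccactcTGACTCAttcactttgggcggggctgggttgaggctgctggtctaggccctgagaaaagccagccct
The TEAD motif GGAATG and its reverse complement CATTCC were searched on both strands, as was TGANTCA, which reads the same on both strands. Promoters were found for 7 of the 8 genes, all but LAMA1, with 9 start sites. The TEAD motif was in 0 of these 9 windows, against 11.9% of 35116 windows of the same length over all genes. The AP-1 motif was in 2 of the 9, against 6.57% of all windows: in the third LAMB3 window it began 67 bases before the start site, and the LAMA3 window held it at 125 and at 69 bases. The LAMA4 window was 48.4% G and C, the LAMC1 window 79.6% and the LAMA5 window 82.8%, where the median over all windows was 58.0%. These matches are descriptions of the letters in these windows.

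Other chains of the family were read as well, namely LAMA2, LAMB4 and LAMC3. LAMA2 encodes the α2 chain of muscle and nerve, and its brightest probe set averaged 6.05 ± 0.04 log2 with mix 2, 6.06 ± 0.20 with mix 1 and 5.86 ± 0.15 with siControl (SD, n = 4 each). It did not pass the test with mix 2 (0.19, limma adjusted p = 0.0912) or mix 1 (0.20, adjusted p = 0.0847). With the replicate letters as a block, LAMA2 passed with mix 2 (0.19, adjusted p = 0.0445) and mix 1 (0.20, adjusted p = 0.0408), and in a fit of the 2 groups alone it passed with mix 2 (adjusted p = 0.0453). Without siControl replicate C it passed with both mixes (0.25 each, adjusted p = 0.0447 for mix 2 and 0.0419 for mix 1), and without mix 1 replicate D it passed with mix 1 (0.28, adjusted p = 0.016). LAMB4 and LAMC3 lay below the filter in all of their probe sets, with differences from siControl between -0.16 and 0.12 log2 and overlapping arrays.

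**Figure D3:**
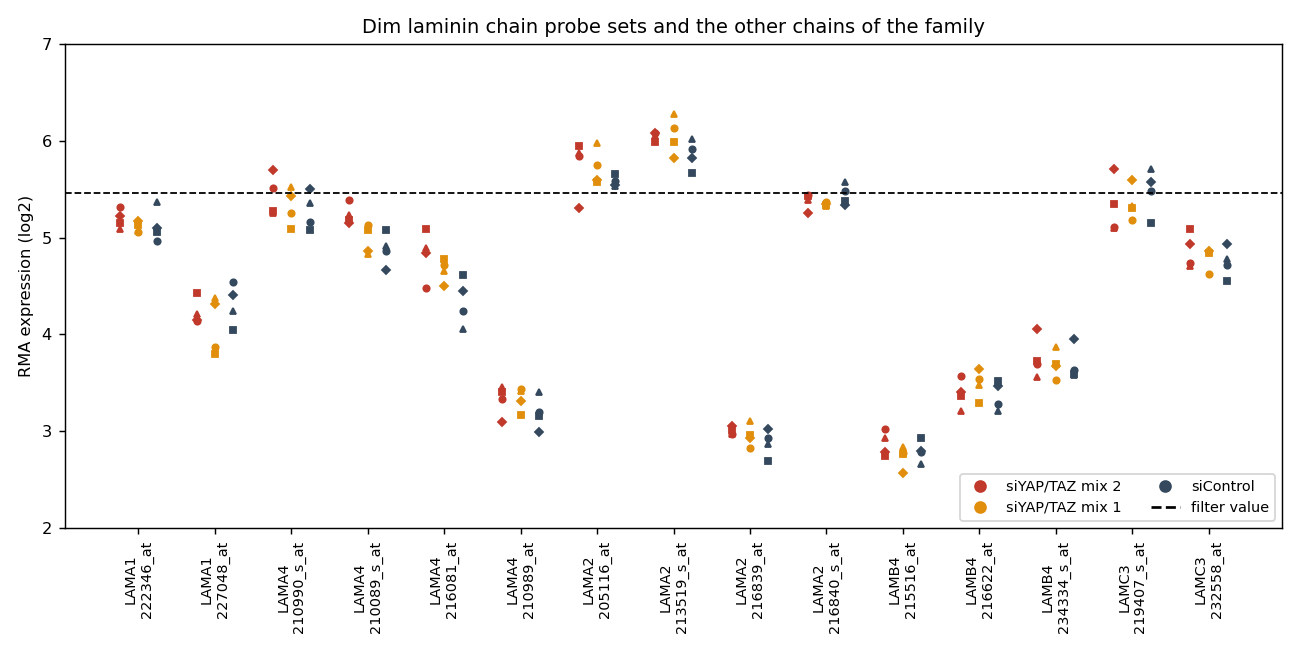
RMA expression (log2, vertical axis) on single arrays for the laminin chain probe sets below the filter and for all probe sets of LAMA2, LAMB4 and LAMC3. Colours give the siRNA group, shapes the replicate letter (circle A, square B, triangle C, diamond D), and the dashed line the filter value of 5.46. Only 2 LAMA2 probe sets have means above the line, and the groups overlap in most of the sets shown.

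Genes that act with laminins were tested in the same fit over all 24650 probe sets, each read on its brightest probe set. In a fit with only the brightest probe set of each gene, 9070 of 13225 were called with mix 2 and 8878 with mix 1. Their counts stand beside the 66.2% of all probe sets called with mix 2 and the 65.0% called with mix 1, and a list called at about these shares is no result about the list. The lists were chosen with earlier results of these arrays known, so a count above these shares is a description too. Genes named from the lists were mostly picked by their calls and the size of their differences, and their adjusted p-values describe genes so picked. Of 15 genes of laminin receptors and their partners, 13 had a probe set named here and all 13 passed the filter. With mix 2, 7 rose and 3 fell (median 0.39 log2), and with mix 1, 10 rose and 2 fell (median 0.73); in either direction this is 10 of 13 with mix 2 and 12 of 13 with mix 1. ITGA7 passed with neither. ITGA1, the α1 integrin subunit of a receptor for collagens and laminins, averaged 8.96 ± 0.12 log2 with mix 2, 9.50 ± 0.26 with mix 1 and 5.87 ± 0.09 with siControl. The rises of ITGA1 were 3.09 (SE 0.11, adjusted p = 7.68e-12) and 3.62 (adjusted p = 2.66e-12). ITGB4, the β4 subunit of the hemidesmosome receptor for the anchoring laminin, rose by 1.61 with mix 2 (adjusted p = 4.2e-10) and 1.60 with mix 1 (adjusted p = 5.4e-10). With the mean of its probe sets these rises were 0.81 and 0.82.

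Of the α subunits of laminin-binding integrins, ITGA6 and ITGA3, chosen after their values were seen, passed with mix 1 and not with mix 2. ITGA6, which pairs with β1 or β4, rose by 0.82 with mix 1 (adjusted p = 1.7e-05) and differed by 0.14 with mix 2 (adjusted p = 0.312). ITGA3, which pairs with β1, rose by 0.35 with mix 1 (adjusted p = 0.00722) and differed by -0.13 with mix 2 (adjusted p = 0.267). The difference between the mixes itself passed for ITGA6 (-0.68, adjusted p = 0.000164) and for ITGA3 (-0.48, adjusted p = 0.00103).

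The syndecans are cell-surface proteoglycans that bind laminin globular domains. SDC2 rose by 1.66 log2 with mix 2 (adjusted p = 1.4e-10) and 0.95 with mix 1 (adjusted p = 6.76e-08), and SDC1 fell by 1.10 with mix 2 (adjusted p = 1.77e-07) and 0.89 with mix 1 (adjusted p = 1.91e-06). SDC4 moved in opposite directions: it averaged 9.63 ± 0.14 with mix 2, 10.98 ± 0.14 with mix 1 and 10.14 ± 0.08 with siControl. The SDC4 difference between the mixes was -1.34 (SE 0.08, adjusted p = 1.02e-08).

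Of 17 other basement membrane genes, 8 passed the filter; 5 rose and 1 fell with mix 2 (median 0.27), and 4 rose with mix 1 (median 0.28) while none fell, also at an unadjusted p in limma (0). These 6 of 8 and 4 of 8 genes are near or below the share of all probe sets called. COL4A5, a chain of the collagen IV network, averaged 9.48 ± 0.03 log2 with mix 2, 8.92 ± 0.24 with mix 1 and 6.71 ± 0.22 with siControl. The rises of COL4A5 were 2.77 (adjusted p = 4.55e-11) and 2.21 (adjusted p = 6.06e-10). COL4A1, COL4A2 and COL18A1 rose by 0.61, 0.33 and 0.42 with mix 2 and by 1.00, 0.47 and 1.59 with mix 1. NID1 and AGRN, which link laminin to collagen IV and to the cell, did not pass with either mix, with differences between -0.07 and 0.08. Below the filter, and chosen after its values were seen, COL4A6 averaged 6.83 ± 0.17 with mix 2, 4.94 ± 0.21 with mix 1 and 3.85 ± 0.12 with siControl. COL15A1, also below the filter and chosen likewise, ran the other way between the mixes, at 3.35 ± 0.12 with mix 2, 5.71 ± 0.23 with mix 1 and 3.68 ± 0.34 with siControl.

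**Figure D4:**
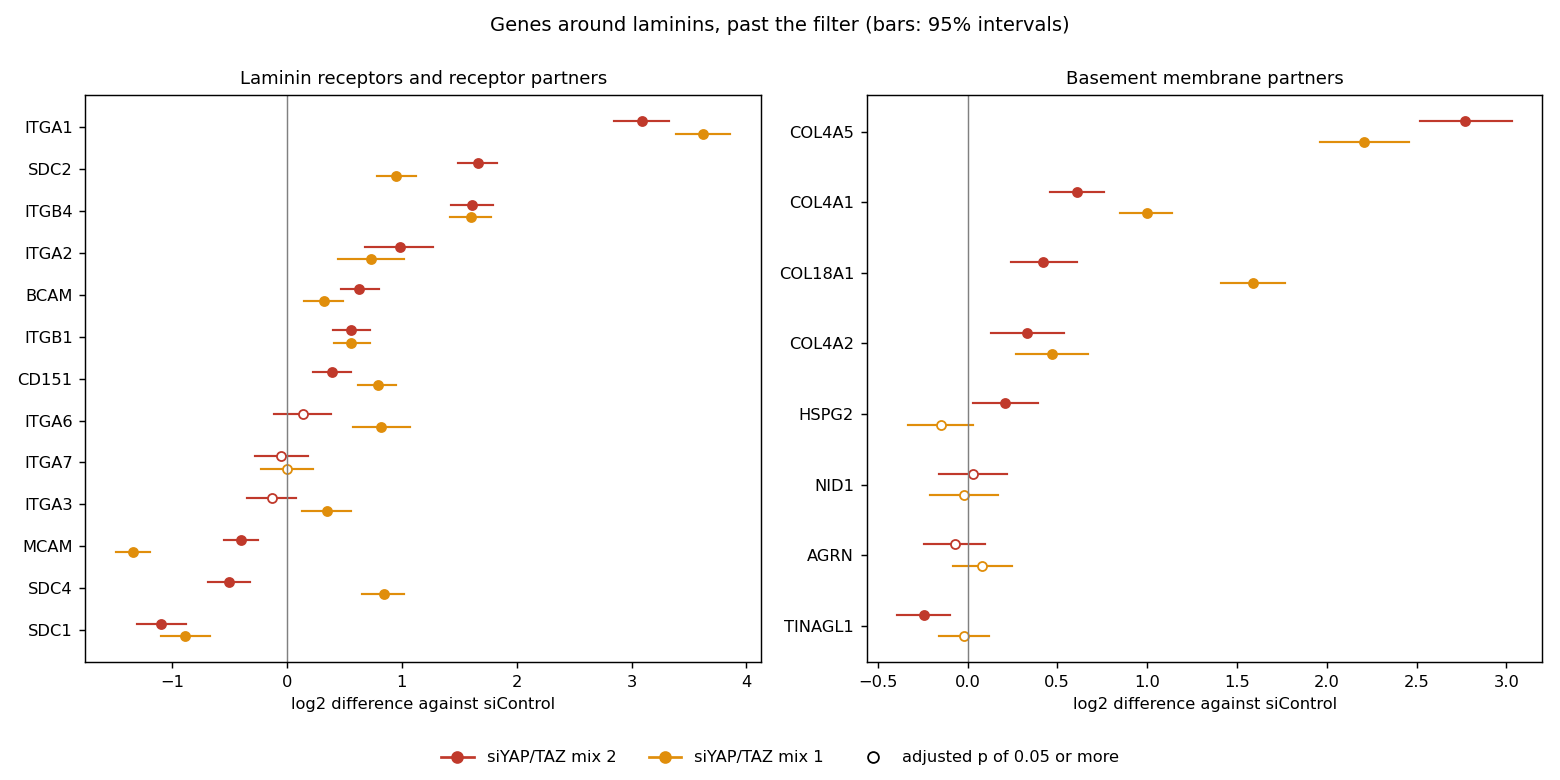
Log2 differences from siControl (horizontal axis) of laminin receptor genes and of basement membrane genes past the filter, for mix 2 and mix 1. Points are limma estimates from 4 arrays per group, bars are 95% intervals, and open points did not pass at an adjusted p of 0.05. ITGA1 (3.09 and 3.62) and COL4A5 (2.77 and 2.21) lie farthest to the right, and SDC4 lies on opposite sides of 0.

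Of 9 genes of hemidesmosomes and anchoring fibrils, 7 passed the filter; 4 rose with mix 2 (median 0.39), below the share over all probe sets, and 6 with mix 1 (median 0.79). Those that rose with both were ITGB4, its partner tetraspanin CD151 (0.39 and 0.79), the anchoring fibril collagen COL7A1 (0.60 and 0.79) and the linker DST (0.40 and 0.22). The DST value with mix 1 turned to -0.12 (adjusted p = 0.172) when all of its probe sets were averaged. Without probe sets that can read related transcripts only 3 genes of this list were left, of which limma called 0 with mix 2 and 2 with mix 1. Among the netrins, guidance proteins that share the end domain of laminins, 5 of 6 were tested, and with either mix NTN4 and NTNG2 were called and the other 3 were not. NTN4 rose by 1.43 with mix 2 (adjusted p = 7.2e-09) and 0.98 with mix 1 (adjusted p = 5.07e-07). NTNG2 differed by 0.77 and 0.79, but it passed the filter only through the mixes, since all 4 siControl arrays lay below the filter value (4.34 to 5.34). With the filter at the 60th percentile, NTN4 alone was tested and the count was 1. Of 8 proteases that cut laminin chains 2 passed the filter, and both rose: the membrane protease MMP14 by 1.03 with mix 2 and 1.38 with mix 1, and BMP1, which trims laminin and collagen chains, by 0.47 and 0.84.

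Markers of other cells were read beside these values. Of 7 endothelial markers, 3 passed the filter, and PECAM1 rose with mix 2 (1.33, adjusted p = 4.72e-09) and mix 1 (2.08, adjusted p = 5.18e-11). The mean over all 7 markers was 5.41 to 5.51 log2 on the mix 2 arrays, 5.37 to 5.53 with mix 1 and 5.18 to 5.37 with siControl. CDH5, the cadherin that defines endothelium, was at 3.93, 3.92 and 3.97 log2 with mix 2, mix 1 and siControl, below the filter value, as were TEK, TIE1 and KDR. KDR averaged 5.30 with mix 2, 4.56 with mix 1 and 5.30 with siControl. Of 8 basal and keratinocyte markers 5 had a probe set named here, and the mean over them was 5.19 to 5.40 log2 with mix 2, 5.57 to 5.80 with mix 1 and 5.61 to 5.84 with siControl. MYLK fell with both mixes (-2.64 and -0.75), while KRT14 was below the filter value and KRT5 did not pass. Of 9 fibroblast and smooth muscle markers 5 passed the filter. Of these 5, 3 rose with mix 2, and 2 rose and 1 fell with mix 1. These counts are near or below the 66.2% and 65.0% of all probe sets called with mix 2 and mix 1. COL1A1 rose by 1.48 with mix 2 and 2.30 with mix 1, and PDGFRB by 0.88 and 0.66. ACTA2 rose with mix 2 (0.49) and fell with mix 1 (-0.33), and MYH11 and DES passed with neither. The mean over all 9 markers was 6.02 to 6.08 log2 with mix 2, 5.72 to 5.82 with mix 1 and 5.32 to 5.43 with siControl. Of 6 leukocyte markers 4 were tested, and CD14 and LYZ were called with either mix. Both passed the filter only through the mixes: CD14 averaged 6.39, 6.26 and 5.15 log2 with mix 2, mix 1 and siControl, and LYZ averaged 9.18, 9.14 and 4.96, with siControl arrays at 4.81 to 5.45 and 4.62 to 5.31, so no count is given. The mean of the list was 6.23 to 6.42 with mix 2, 6.16 to 6.21 with mix 1 and 5.06 to 5.30 with siControl. PTPRC, which defines leukocytes, lay below the filter value (4.47, 3.80 and 4.04). These genes were named after their values were seen. The part of such genes in the laminin values was not tested.

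By position, 16 protein-coding genes flank the 8 laminin genes in the RefSeq gene table, and 9 were tested. With mix 2, 3 of these rose and 4 fell, and with mix 1 also 3 rose and 4 fell, where 66.2% and 65.0% of all probe sets were called. FAM229B, beside LAMA4, rose by 1.62 log2 with mix 2 (adjusted p = 8e-11) and 0.68 with mix 1 (adjusted p = 1.06e-06). G0S2, beside LAMB3, fell by 2.40 with mix 2 (adjusted p = 1.86e-11) and 1.74 with mix 1 (adjusted p = 6.36e-10). USP19, beside LAMB2, rose by 0.44 and 0.49, and ANKRD29, beside LAMA3, rose by 1.64 and 0.98. ADRM1, beside LAMA5, fell by 0.96 and 0.70, the opposite direction to LAMA5. The other LAMA5 neighbour, RPS21, fell by 0.16 with mix 2 (adjusted p = 0.0239) and 0.27 with mix 1. Its mix 2 value did not pass without a filter (adjusted p = 0.0611). It also did not pass when replicate C or D was left out of siControl (0.0642 and 0.0584) or A or C out of mix 2 (0.0643 and 0.0592). With the mean of its probe sets RPS21 fell by more, by 0.53 with mix 2 (limma adjusted p = 2.23e-06) and 1.05 with mix 1 (adjusted p = 1.17e-09).

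The genes most like each of the 3 chains with the widest span were found by Pearson's r over the 12 arrays among 13219 other genes; r over these arrays mostly follows the 3 group means, and the closest genes are given as a description. For LAMA4 these were SLC35D2, RHOBTB1 and UST, with an r of 0.997 each. For LAMB3 they were SENP5 (0.994), AMMECR1 (0.994) and MIEF1 (0.993), and for LAMB2 RAB11FIP5 (0.980), DOCK6 (0.980) and MAN2B1 (0.978). UST averaged 9.18 log2 with mix 2, 8.54 with mix 1 and 6.81 with siControl, and AMMECR1 averaged 8.55, 10.05 and 10.33.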

How the data were processed

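RNA of 12 cultures was hybridised to Affymetrix arrays. The authors deposited log2 values in 1 table; the submitters' processing notes name RMA, with no software or version given. RMA usually brings all arrays to 1 distribution, so a shift of all genes would not show.

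Of 54675 probe sets, 41097 had 1 gene symbol in GEO's platform annotation, 1801 several and 11777 none here. Without control probe sets, 41091 were kept; 41037 symbols were updated through RefSeq gene IDs. Only probe sets with a mean above the 40th percentile (5.46 log2) were tested, with limma 3.58.1 (R 4.3.3): 3 group means on all 12 arrays, 9 residual degrees of freedom, default eBayes, two-sided p-values adjusted by Benjamini-Hochberg over 24650 probe sets, threshold 0.05. A gene other than a laminin chain was read on its brightest probe set. Arrays have no read depth; their number limits precision. The fit was tested on simulated data with independent noise and few changed probe sets, in mix 1 only. It called 71% of changes of 0.5 log2 and 100% of changes of 1.0 log2. Far more probe sets were called in the real arrays, so the simulation does not measure the errors of the results given here.

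The laminin genes and the 7 gene lists were chosen with earlier results of these data known. Named were all laminin probe sets, YAP1, WWTR1 and CCN2, up to 4 genes of each list called the same way with both mixes and up to 2 called opposite ways, the closest genes of 3 chains, and neighbours called with both mixes.

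Replicate letters were checked for pairing. Deviations from the group means of same-letter arrays correlated at 0.352 to 0.429 between mix 1 and control, all above 0.1, and at 0.000 to 0.101 between mix 2 and control. Mix 1 replicate B, however, matched control replicate A best. For mix 1 against control the letters may thus mark a pairing, on the strength of these correlations alone. The fit as planned had no block, and values given without naming a block, also for mix 1, come from that unpaired fit. A block of the letters was run only as an alternative. Alternatives were other filters, scalings, a replicate block, 2-group fits, a trended prior, 1 value per gene, no shared probe sets and leaving out each array. Results for some items are not reported here.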

Additional observations from a re-analysis of the deposited data

Results flagged for a closer look

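In groups of 4 arrays, 141 groups of values were checked for 1 array far from the other 3, and 9 were found; chance alone gives about 1 in 20. Among laminin chains the only one was LAMB2 with mix 2, where replicate D read 8.50 log2 and the others 9.27 to 9.28. Mix 2 replicate D was also apart for COL4A2 (10.81, the others up to 11.03) and SDC2 (11.10, the others 10.92 to 10.93), and mix 2 replicate B for CCN2 (10.28, the others 10.40 to 10.42). With mix 1, ADRM1 read 10.03 in replicate D against 10.09 to 10.10 in the others. With siControl, ADRM1 read 10.96 in replicate B (others 10.70 to 10.74), USP19 read 9.07 in replicate B (others 8.86 to 8.89), G0S2 read 11.21 in replicate C (others 11.35 to 11.36) and NTNG2 read 4.34 in replicate D (others 5.17 to 5.34).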

How the results depend on the processing

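The laminin counts of 8 (mix 2 against control), 5 (mix 1 against control) and 6 (mix 2 against mix 1) called probe sets were within 1.5 times of these values under all alternatives except leaving out shared probe sets, which left only 3 laminin probe sets to test, of which 3, 1 and 2 were called. LAMA4, LAMA5 and LAMB2 rest on shared probe sets alone. Leaving out each array gave 8 to 8, 5 to 5 and 6 to 8. The replicate block changed none of the laminin counts (8, 5 and 6); among the gene differences and list counts against control given in the text it changed a call only for LAMA2 (0.20 with mix 1; 0.19 with mix 2, adjusted p = 0.0445) and 1 hemidesmosome gene, then lower with mix 2. The counts over all probe sets, 16314, 16017 and 12651, were 15671 to 16562, 15342 to 16445 and 11814 to 12720 with 1 array left out. They were 9070, 8878 and 7096 with the brightest probe set per gene and 9558, 9416 and 7631 without shared probe sets, as fewer were tested. Of 387 recomputed laminin differences, 386 moved by less than the SD between replicates; LAMC1 between the mixes moved to 0.20 with the mean of its probe sets. Among other named genes 1 reversed, DST with mix 1 (-0.12), 12 values lost a call and 18 gained one. For the gene lists, 19 of 456 recomputed counts moved by over 1.5 times; without shared probe sets the basement membrane list kept 3 testable genes, and without a filter 8 of its genes were called with mix 1. Precision is limited by 4 arrays per group.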

Other observations

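Of 13 genes for the glycosylation that lets dystroglycan bind laminins, 9 were tested. With mix 2, 4 rose and 2 fell, and with mix 1, 2 rose and 3 fell; these 6 of 9 and 5 of 9 genes are near or below the 66.2% and 65.0% of all probe sets called. Without a filter 2 rose and 2 fell with mix 2. B4GAT1, which primes the laminin-binding sugar chain, rose by 1.39 log2 with mix 2 (limma adjusted p = 1.95e-10) and 0.97 with mix 1 (adjusted p = 1.03e-08), and POMT2, a first enzyme of the pathway, by 0.48 and 1.06. B3GALNT2 (-1.04 and -1.51) and RXYLT1 (-0.83 and -0.84), both of the same pathway, fell. With the mean of their probe sets the rises were 0.63 and 0.42 for B4GAT1 and 0.26 and 0.60 for POMT2.

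Transcripts related to the laminin genes were read on 4 probe sets, chosen after their values were seen. LAMB2P1, a pseudogene related to LAMB2, rose by 0.20 with mix 2 (adjusted p = 0.014) and 0.29 with mix 1 (adjusted p = 0.000966); the LAMB2 probe set is of the kind that can read related transcripts, and how much of LAMB2P1 it reads was not tested. The antisense transcripts LAMA4-AS1 (0.11 and 0.18, adjusted p = 0.267 and 0.0724) and LAMA5-AS1 (-0.05 and 0.07, adjusted p = 0.67 and 0.571) did not pass. The probe set annotated to both LAMA5 and LAMA5-AS1 averaged 6.18 ± 0.11 with mix 2, 6.15 ± 0.13 with mix 1 and 6.44 ± 0.09 with siControl, a difference of -0.26 and -0.29, with overlapping arrays and no test, where the LAMA5 probe set was higher with both mixes.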
